A study of Rattus norvegicus with 32 samples.

Results

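A set of 6 genes of the TNF, IL-1 beta and NF-kappa B pathway was followed in the hippocampus of R237H rats, a model of Alexander disease, and their WT littermates. They were Tnf, Il1b, Tnfrsf1a, Tnfrsf1b, Nfkb2 and Birc3, chosen by name out of the 23822 genes in the tables. The choice was made with earlier results of these data known. R237H rats carry 1 mutant allele of their own Gfap gene (Gfap+/R237H) on the outbred Crl:CD(SD) background, so the mutant protein is made in the cells that normally use the Gfap promoter, and WT rats are Gfap+/+. Each hippocampus gave 1 polyA-selected, stranded RNA library. The P56 groups held 4 rats each (R237H or WT, male or female), as did the male groups at P21, while the female groups at P21 held 5 R237H and 3 WT rats. All 8 males at P21 carried the same number in their sample titles, and the labels do not say what it stands for. All 32 rats entered the tests, and the spread given is between rats.

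TNF and IL-1 beta are cytokines that microglia and other myeloid cells release early in inflammation. TNF is made as a membrane protein and shed, and it binds a widely expressed receptor (encoded by Tnfrsf1a) and one found mainly on myeloid and lymphoid cells (encoded by Tnfrsf1b). IL-1 beta is made as an inactive precursor that caspase-1 cuts, and it signals through Il1r1. Both routes reach NF-kappa B, a family of paired transcription factors held in the cytoplasm by inhibitors. The canonical route frees Rela and Nfkb1 products, and the non-canonical route uses the kinase Map3k14 to process the Nfkb2 precursor, which partners with Relb. Nfkb2, Birc3 and Tnf are themselves known targets of NF-kappa B, and Birc3 and Birc2 are ubiquitin ligases that act below the TNF receptors and hold Map3k14 down.

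NF-kappa B binds short DNA motifs. Examples of sequences that carry such a motif just before the start of pathway genes are shown here. They let the pathway be read in letters as well as in counts. The NF-kappa B consensus was searched on both strands from 250 bases before to 50 bases after each RefSeq gene start (build GRCr8). It was found in 1239 of 27457 genes (4.51%) and in 14 of the 49 pathway genes that had an entry (28.6%). The pathway list includes genes that NF-kappa B is known to induce, so its higher share is no evidence of enrichment. Of the 5 members with an entry, Nfkb2 held a match and Tnf, Il1b, Tnfrsf1a and Tnfrsf1b did not within this window. The Nfkb2 match was GGGACTTTCC, 1 of the words that the consensus allows. This word was taken from the Nfkb2 match and then searched in all windows, where 27 of the 27457 genes (0.0983%) held it. Nfkb2 is among the 27 by that choice, so the low share is no evidence about Nfkb2. Further matches before the start, in Irak3, Nfkbie, Il1r1, Lcn2, Nfkbiz and elsewhere in Tnfaip3, are not marked. Capitals mark 1 match in each line below, printed 5′ to 3′ in the direction of transcription.
Nfkb2, chr1:255108344-255108373, plus strand: tggtattttcGGGACTTTCCtaagagcact
Nfkbia, chr6:78597084-78597113, minus strand: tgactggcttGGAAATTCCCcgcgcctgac
Bcl3, chr1:88613574-88613603, minus strand: tcggcggcagGGGAAGTCCCgcagcccggc
Tnfaip3, chr1:15544027-15544056, minus strand: tcacgtgactGGAAAGTCCCtcggaaatcc
Irf1, chr10:38417860-38417889, plus strand: agttcgggccGGGGAATCCCgctaagtgtt
Vcam1, chr2:206742857-206742886, minus strand: tccccttgaaGGGATTTCCCtccgcctctc
The Nfkb2 match began 20 bases before the annotated start, that of Nfkbia 31 bases and that of Bcl3 38 bases before it. Nfkbia, Bcl3 and Tnfaip3 restrain or tune NF-kappa B, and Irf1 and Vcam1 are genes it induces. A match is a run of letters, and no binding was measured here.

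Depth was 21580397 to 55544871 expected counts per rat (median 46157271), and the 2 shallowest libraries were R237H male P21 replicate 3 and R237H male P56 replicate 4. Gfap, the mutated gene, was at 1832 to 5257 TPM over all R237H groups and at 290.4 to 583.8 TPM over all WT groups, so the labels and this gene went the same way in every rat. TPM (RSEM's unit, scaled for gene length and depth) is used below for levels. Fold changes come from the counts by edgeR's quasi-likelihood test within each sex and age, and a gene was called increased or decreased at an FDR under 0.01. On the TPM scale the median of all tested genes was itself shifted in R237H rats, by 0.40 in males and 0.26 in females at P56 on the log2(TPM + 0.1) scale, and by -0.01 and -0.07 at P21, while edgeR's scaling kept that median between -0.03 and -0.01. On the TPM scale 3728 genes were called higher and 189 lower in males at P56, against 2531 and 1677 by edgeR. TPM levels at P56 are therefore read within a rat or beside the edgeR fold change. The ages were different rats, so age and time of collection cannot be told apart.

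In males at P56, 5 of the 6 genes were increased in R237H rats, against 16.8% of the 15097 genes tested. The same 5 of 6 were increased in females at P56, against 17.0% of genes. In males at P21 all 6 were increased (12.4% of genes), and in females at P21 all 6 were (7.06% of genes). Tnf was the gene that did not pass at P56 within either sex. With both sexes of an age in 1 fit, 6 of 6 were increased at P56 (24.8% of genes) and 6 of 6 at P21 (15.8% of genes). Il1b and Birc3 showed the largest increases of the 6 at P56, and Birc3 the largest and Tnfrsf1b the smallest at P21. The 6 genes were chosen with earlier results of these data known, and their symbols came from the study's own genes of smallest FDR. The members are thus selected for change, and their counts are no independent evidence of direction.

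**Figure D1:**
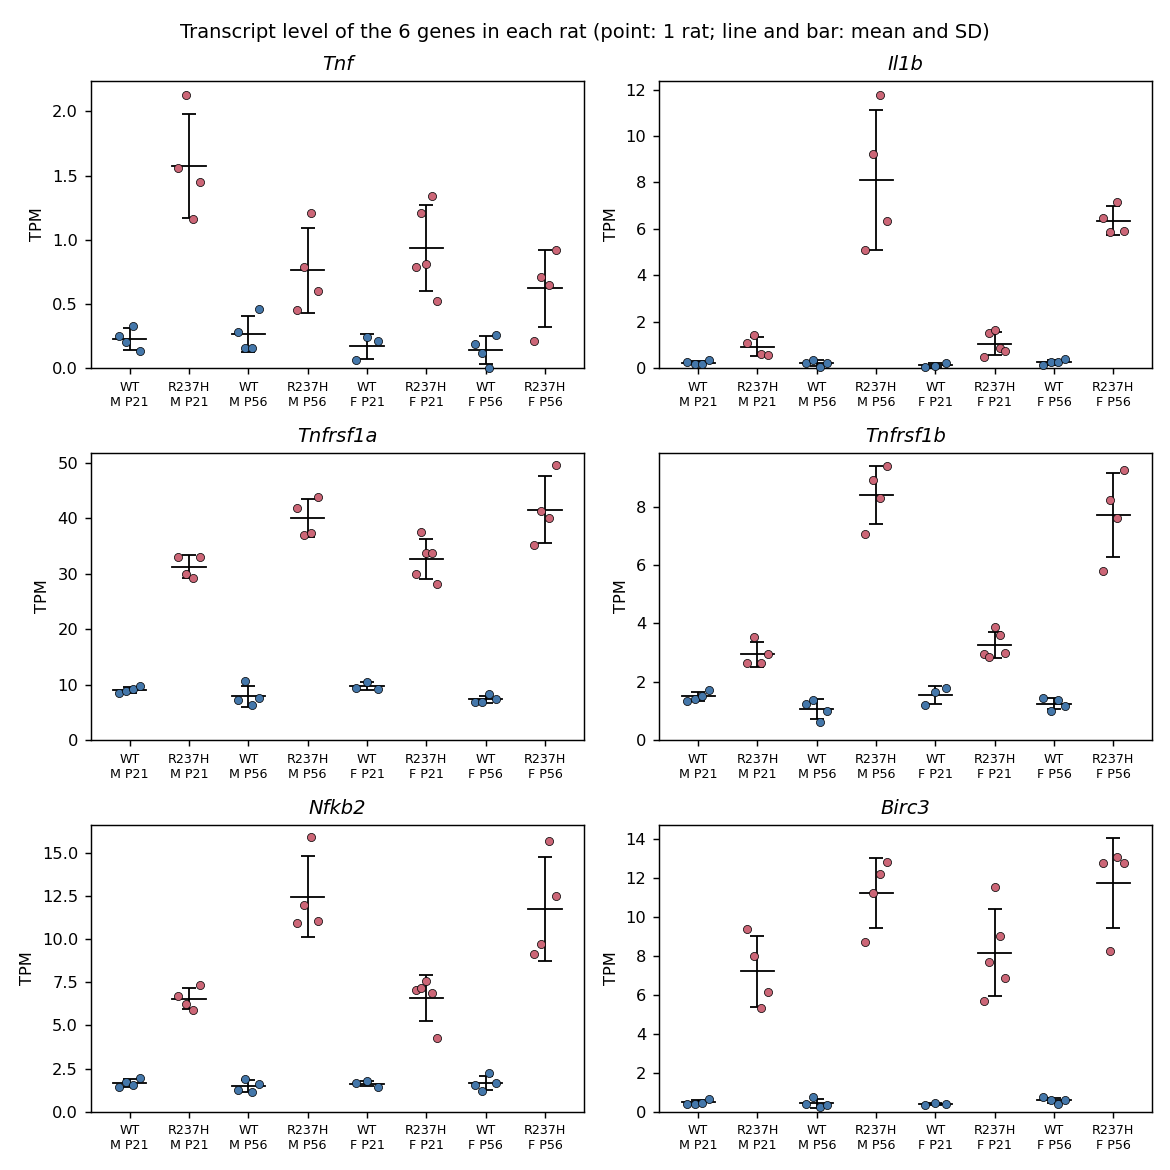
Level in TPM of each of the 6 genes in every rat (1 point per rat, WT in blue, R237H in red, M male, F female), with the mean and SD of each group. Il1b was highest in R237H rats at P56 and Tnf in R237H males at P21. Apart from Tnf at P56 each gene was higher in every R237H rat than in any WT rat of the same sex and age. The share of all genes that separate in this way is not given here.

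The ligands were the scarcest of the 6 transcripts in WT rats. Tnf (ENSRNOG00000070745) was counted 7, 9, 12 and 21 times in WT males at P56 and 12, 16, 36 and 56 times in R237H males. In females at P56 the counts were 0, 5, 8 and 11 in WT rats and 8, 27, 29 and 37 in R237H rats. The genotypes overlapped in both sexes at P56, and 3 of 4 R237H rats of each sex were above every WT rat in CPM, the count scaled to the library's total. The WT female with 0 counts could have held up to 3 counts, or 0.0627 CPM. The log2 fold change was 1.14 (SE 0.46, FDR = 0.0735) in males and 1.82 (SE 0.63, FDR = 0.0403) in females, so neither passed. With both sexes together it was 1.42 (SE 0.41, FDR = 0.00658), a call that was lost on leaving out any 1 of 8 of the 16 rats (FDR = 0.0107 to 0.0157).

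At P21 Tnf counts were 6, 8, 9 and 14 in WT males and 23, 50, 66 and 85 in R237H males. In females they were 1, 7 and 10 in WT rats and 22, 34, 41, 52 and 63 in R237H rats. The genotypes did not overlap in either sex, and the R237H male with 23 counts was the shallow library, with 1.16 TPM against 1.45 to 2.13 TPM in the other 3. Tnf rose by 2.83 on the log2 scale in males (SE 0.30, FDR = 2.26e-05) and by 2.65 in females (SE 0.56, FDR = 0.0093). The call in females was lost on leaving out any 1 of 7 of the 8 rats (FDR = 0.014 to 0.0279). Mean Tnf in R237H rats was 1.58 ± 0.41 TPM (SD, n = 4) in males and 0.934 ± 0.335 TPM (SD, n = 5) in females at P21, against 0.763 ± 0.329 and 0.623 ± 0.298 TPM (SD, n = 4 each) at P56.

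Il1b (ENSRNOG00000004649) was scarce in WT rats and abundant in R237H rats at P56. In males at P56 it was counted 2, 7, 8 and 12 times in WT rats and 102, 136, 320 and 411 times in R237H rats. In females at P56 the counts were 4, 9, 9 and 12 in WT rats and 177, 182, 185 and 230 in R237H rats. These groups were far apart, and the R237H female rats lay close together. Il1b rose by 4.92 on the log2 scale in males (SE 0.44, FDR = 1.92e-05) and by 4.31 in females (SE 0.30, FDR = 2.62e-06).

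At P21 Il1b was a low-count gene in both genotypes. WT males had 5, 6, 8 and 12 counts and R237H males 9, 17, 35 and 42. WT females had 2, 3 and 6 counts and R237H females 16, 24, 27, 59 and 63. In CPM the genotypes did not overlap, although in males the lowest R237H rat (0.393 CPM) was close to the highest WT rat (0.23 CPM). Il1b rose by 1.97 in males (SE 0.37, FDR = 0.00205) and by 3.13 in females (SE 0.60, FDR = 0.00549). The female call was lost on leaving out any 1 of 5 of the 8 rats (FDR = 0.0106 to 0.0357).

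The difference between ages was tested as an age by genotype interaction. Among males 2 of the 6 genes had a different genotype effect at P56 than at P21 (10.1% of all genes tested), Il1b and Tnfrsf1b. Among females it was 1 of 6 (2.15% of genes), Tnfrsf1b. For Il1b the effect at P56 exceeded that at P21 by 2.94 on the log2 scale in males (SE 0.61, FDR = 0.003) and by 1.19 in females (SE 0.74, FDR = 0.368). The male call was lost without WT male P21 replicate 4 (FDR = 0.0116). For Tnf the estimate was -1.69 in males (SE 0.58, FDR = 0.0448) and -0.82 in females (SE 0.93, FDR = 0.663), and neither passed. A fit over all 32 rats, added after seeing the data, gave 2.18 for Il1b (SE 0.49, FDR = 8.63e-04) and -1.30 for Tnf (SE 0.54, FDR = 0.0624), with 2 of 6 genes called and 21.2% of all genes.

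The ratio of the 2 ligands within a rat is free of scaling between libraries. In R237H males at P21 Tnf stood at 1.42 to 2.50 times the Il1b TPM, and in R237H females at P21 at 0.488 to 1.58 times. At P56 the range was 0.0855 to 0.103 in R237H males and 0.0325 to 0.156 in R237H females. No R237H rat at P56 overlapped any R237H rat at P21 in this ratio. In WT rats it ran from 0 to 3.20 over the 4 groups, on counts of at most 21 for either gene.

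The receptors were more abundant than the ligands in WT rats. Tnfrsf1a (ENSRNOG00000031312), the receptor with a death domain, was at 6.29, 7.12, 7.52 and 10.56 TPM in WT males at P56 and at 36.95, 37.29, 41.92 and 43.87 TPM in R237H males. Females at P56 had 6.77 to 8.25 TPM in WT rats and 35.17 to 49.65 TPM in R237H rats. At P21 the ranges were 8.40 to 9.81 against 29.26 to 33.10 TPM in males and 9.15 to 10.49 against 28.19 to 37.59 TPM in females. The genotypes never overlapped and the increase was of like size in each comparison. Tnfrsf1a rose by 1.98 (SE 0.13) in males and 2.18 (SE 0.11) in females at P56 and by 1.79 (SE 0.07) in males and 1.83 (SE 0.16) in females at P21, with FDR at or below 3.89e-05. Its age by genotype estimate was 0.27 over all rats (SE 0.11, FDR = 0.063), which did not pass, and it passed without R237H female P21 replicate 2 (FDR = 0.00827).

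Tnfrsf1b (ENSRNOG00000016575), the receptor of myeloid and lymphoid cells, was at 0.62, 1.0, 1.24 and 1.38 TPM in WT males at P56 and at 7.08, 8.29, 8.91 and 9.39 TPM in R237H males. In females at P56 it was at 1.01 to 1.44 and 5.79 to 9.25 TPM. At P21 it was at 1.34 to 1.72 and 2.64 to 3.54 TPM in males, and at 1.20 to 1.78 and 2.85 to 3.86 TPM in females. No groups overlapped, but the gap was narrower at P21. Tnfrsf1b rose by 2.65 (SE 0.16, FDR = 1.90e-06) in males and 2.32 (SE 0.14, FDR = 9.25e-07) in females at P56, and by 0.97 (SE 0.11, FDR = 4.03e-05) and 1.13 (SE 0.16, FDR = 8.70e-04) at P21. The P56 effect exceeded the P21 effect by 1.66 in males (SE 0.19, FDR = 3.57e-05) and by 1.19 in females (SE 0.20, FDR = 0.00263). The female call was lost without WT female P21 replicate 3 (FDR = 0.0114). Over all 32 rats the estimate was 1.44 (SE 0.14, FDR = 5.50e-09).

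**Figure D2:**
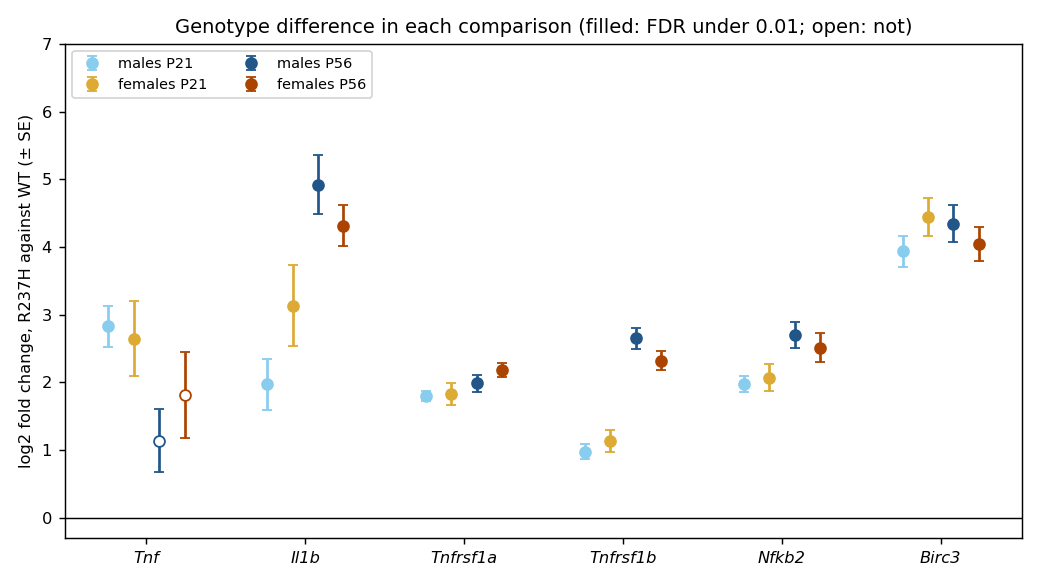
Log2 fold change of R237H against WT rats (± SE, edgeR) for the 6 genes in the 4 comparisons, with filled points at an FDR under 0.01 and open points above it. The 2 open points are Tnf at P56. Il1b and Tnfrsf1b stand higher at P56 than at P21, and Birc3 lies between 3.94 and 4.45 in each comparison.

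The 2 receptors were compared within each rat as the ratio of Tnfrsf1b to Tnfrsf1a in TPM. At P21 it was 0.160 to 0.175 in WT males and 0.0801 to 0.118 in R237H males, and 0.127 to 0.195 in WT females and 0.0758 to 0.114 in R237H females. The ratio was lower in every R237H rat than in any WT rat of its sex at this age. The mean log2 ratio differed by -0.82 in males (exact permutation p = 0.0286, adjusted p = 0.0381 over 8 tests) and by -0.67 in females (exact p = 0.0179, adjusted p = 0.0381). At P56 the ratio overlapped between genotypes in both sexes, with differences of 0.67 in males (exact p = 0.0571, adjusted p = 0.0653) and 0.13 in females (exact p = 0.371, adjusted p = 0.371; 0.0674 to 0.23 with 1 rat left out). With 1 added to each TPM both P56 differences turned negative, to -0.0253 in males (adjusted exact p = 0.829) and -0.40 in females (adjusted exact p = 0.0327). An added 1 weighs most on WT Tnfrsf1b, which was at 0.62 to 1.44 TPM at P56, so these negative values depend on the added 1 and are not read as a lower ratio. The ratio tests were two-sided, and 0.0286 is the smallest p that 4 rats against 4 allow. Leaving out WT male P21 replicate 4 raised the adjusted p of males at P21 to 0.0653, leaving out any WT female raised that of females at P21 to 0.0635, and without WT male P56 replicate 1 the difference in males at P56 passed (0.81, adjusted p = 0.0327).

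Nfkb2 (ENSRNOG00000019311), the precursor of the non-canonical subunit, was at 1.15, 1.25, 1.60 and 1.91 TPM in WT males at P56 and at 10.92, 11.04, 11.96 and 15.88 TPM in R237H males. In females at P56 it was at 1.22 to 2.23 TPM in WT rats and at 9.12 to 15.65 TPM in R237H rats. At P21 WT rats of both sexes were at 1.45 to 1.98 TPM, R237H males at 5.88 to 7.33 TPM and R237H females at 4.24 to 7.54 TPM. WT levels were alike at both ages and R237H levels higher at P56. Nfkb2 rose by 2.69 (SE 0.19, FDR = 5.00e-06) in males and 2.51 (SE 0.21, FDR = 8.69e-06) in females at P56, and by 1.98 (SE 0.12, FDR = 1.36e-07) and 2.07 (SE 0.20, FDR = 8.53e-05) at P21. Its age by genotype estimate was 0.70 in males (SE 0.22, FDR = 0.0334), 0.45 in females (SE 0.29, FDR = 0.387) and 0.58 over all rats (SE 0.18, FDR = 0.0127). The last value passed on leaving out any 1 of 4 rats (FDR = 0.00356 to 0.00903), R237H female P56 replicate 2, WT female P56 replicate 3, R237H female P21 replicate 2 or WT female P21 replicate 3.

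Nfkb1 is the canonical-route counterpart of Nfkb2 in the family, and it also rose in each comparison, by 0.91 to 1.44. The ratio of Nfkb2 to Nfkb1 in TPM was 0.147 to 0.244 over all WT rats and 0.389 to 0.589 over all R237H rats, and no R237H rat overlapped a WT rat. The mean log2 ratio was higher in R237H rats by 1.26 in males and 1.25 in females at P56 and by 1.07 in males at P21 (exact p = 0.0286 for each, adjusted p = 0.0381), and by 1.16 in females at P21 (exact p = 0.0179, adjusted p = 0.0381). Leaving out any WT female, which leaves 5 rats against 2, raised the last adjusted p to 0.0635. The exact p was then the smallest this split allows, so the loss was set by the number of rats.

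**Figure D3:**
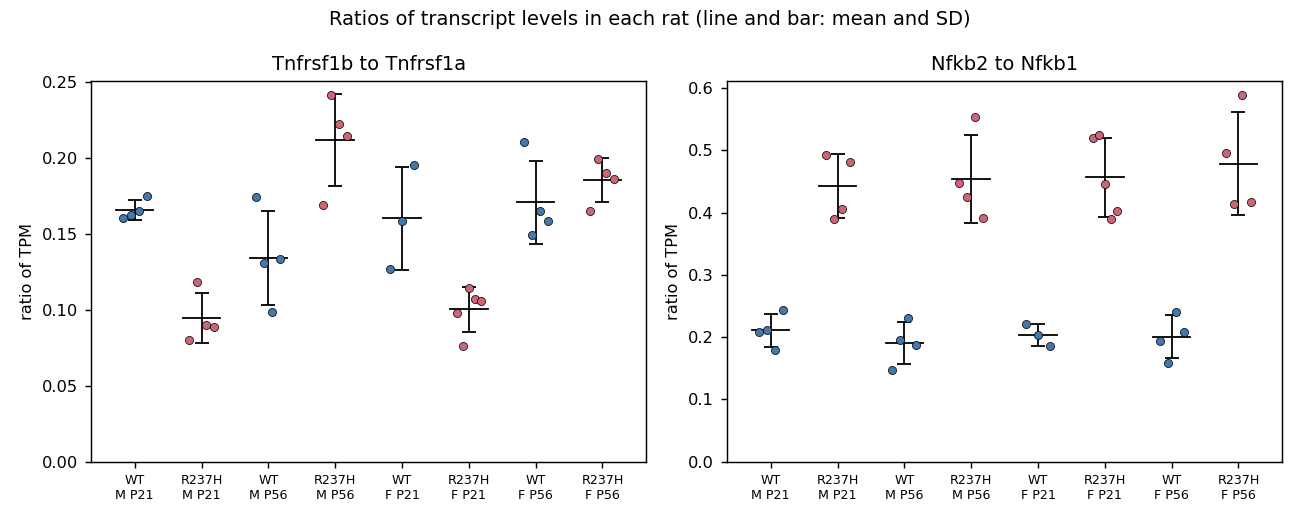
Ratio of TPM values in each rat for Tnfrsf1b to Tnfrsf1a (left) and Nfkb2 to Nfkb1 (right), with the mean and SD of each group (WT in blue, R237H in red). The receptor ratio is lower in R237H rats at P21 and overlaps at P56, and the Nfkb2 to Nfkb1 ratio is at least 0.389 in every R237H rat.

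Birc3 (ENSRNOG00000005731), also known as cIAP2, was below 1 TPM in every WT rat. It was at 0.22, 0.35, 0.41 and 0.77 TPM in WT males at P56 and at 8.73, 11.23, 12.20 and 12.81 TPM in R237H males. In females at P56 it was at 0.40 to 0.73 TPM in WT rats and at 8.26 to 13.08 TPM in R237H rats. The genotypes were far apart in both sexes. At P21 WT rats were at 0.33 to 0.66 TPM over both sexes, R237H males at 5.33 to 9.37 TPM and R237H females at 5.67 to 11.51 TPM. Birc3 rose by 4.34 (SE 0.27, FDR = 2.59e-06) in males and 4.04 (SE 0.25, FDR = 1.13e-06) in females at P56, and by 3.94 (SE 0.23, FDR = 1.21e-07) and 4.45 (SE 0.28, FDR = 4.95e-06) at P21. Its age by genotype estimate was 0.39 in males (SE 0.36, FDR = 0.465), -0.40 in females (SE 0.36, FDR = 0.575) and 0.03 over all rats (SE 0.28, FDR = 0.957). The related ligase gene Birc2 rose by 1.03 to 1.50 over the 4 comparisons.

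A difference between the sexes in the genotype effect was not called for any of the 6 genes, nor for any gene at all (0.00% at either age), by edgeR or by DESeq2. At an unadjusted p under 0.05 edgeR counted 310 genes at P56 and 458 at P21, and DESeq2 346 and 461. For Il1b the male effect differed from the female effect by 0.57 (SE 0.54) at P56 and by -1.16 (SE 0.76) at P21, so the SE was large beside the estimate for this low-count ligand.

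Microglial markers were also higher in R237H rats, though not in step with every member. Of 13 microglia and macrophage markers, 13 were increased in males at P21 (12.4% of all genes) and 11 in males at P56 (16.8%), in P56 females (17.0%) and in P21 females (7.06%). Tmem119 and Trem2, which mark microglia, were the 2 not called at P56 (log2 fold changes of 0.19 to 0.69). Between P21 and P56 the median summed level in R237H males went from 963.5 to 2566 TPM, while their mean Tnf level went from 1.58 to 0.763 TPM. These are TPM levels, on a scale that was shifted at P56. The age by genotype estimate of Tnf in males did not pass (edgeR FDR = 0.0448). The summed marker level was 164.2 to 338.6 TPM over all WT rats, 689 to 1316 TPM over R237H rats at P21 and 1985 to 3296 TPM at P56. None of the 13 was at 0 in all 32 rats. Whole tissue was sequenced, so more cells of a type and more RNA per cell cannot be told apart, and the part of microglial number in these results was not tested. The markers listed for T cells, B cells and for neutrophils and monocytes had no matched symbol and were not analysed here.

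Set against the microglial markers in each rat, the 6 genes differed. The markers in the sum did not rise alike. By edgeR in males at P56 they ran from 1.41-fold (Tmem119, not called) to 11.77-fold (C1qc). The values below therefore depend on which markers are summed and are not levels per microglial cell. The marker sum was itself higher in every R237H rat than in any WT rat. A gene that was unchanged, or rose less than the sum, is therefore lower in R237H rats on this scale. The share of all genes that separate on this scale is not given here, so a separation is not a trait particular to these 6. Per 1000 TPM of markers, Il1b was at 2.29 to 3.57 in R237H males and 2.34 to 3.26 in R237H females at P56, above the 0.305 to 1.14 and 0.387 to 1.33 of WT rats. At P21 Il1b per marker overlapped between genotypes. Birc3 per marker was higher in every R237H rat than in any WT rat of its sex and age, at 3.45 to 9.99 against 1.05 to 2.48. Nfkb2 per marker overlapped in each comparison, at 4.04 to 7.98 in R237H rats and 4.64 to 7.0 in WT rats. Tnfrsf1b per marker was lower in R237H rats at P21 without overlap, at 2.27 to 4.34 against 4.41 to 8.31. Tnf per marker was lower in R237H males at P56, at 0.202 to 0.367 against 0.507 to 1.37, and higher in R237H males at P21, at 1.38 to 2.09 against 0.455 to 1.21. Tnfrsf1a per marker was lower in R237H males at P56, at 11.3 to 21.4 against 22.5 to 38.3. In females the genotypes overlapped for Tnf at P56 (all R237H rats lay inside the WT range of 0 to 0.912) and at P21 (0.615 to 1.14 against 0.221 to 0.981) and for Tnfrsf1a at P56 (13.1 to 22.8 against 22.2 to 27). Tnfrsf1a at P21 and Tnfrsf1b at P56 overlapped in both sexes.

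**Figure D4:**
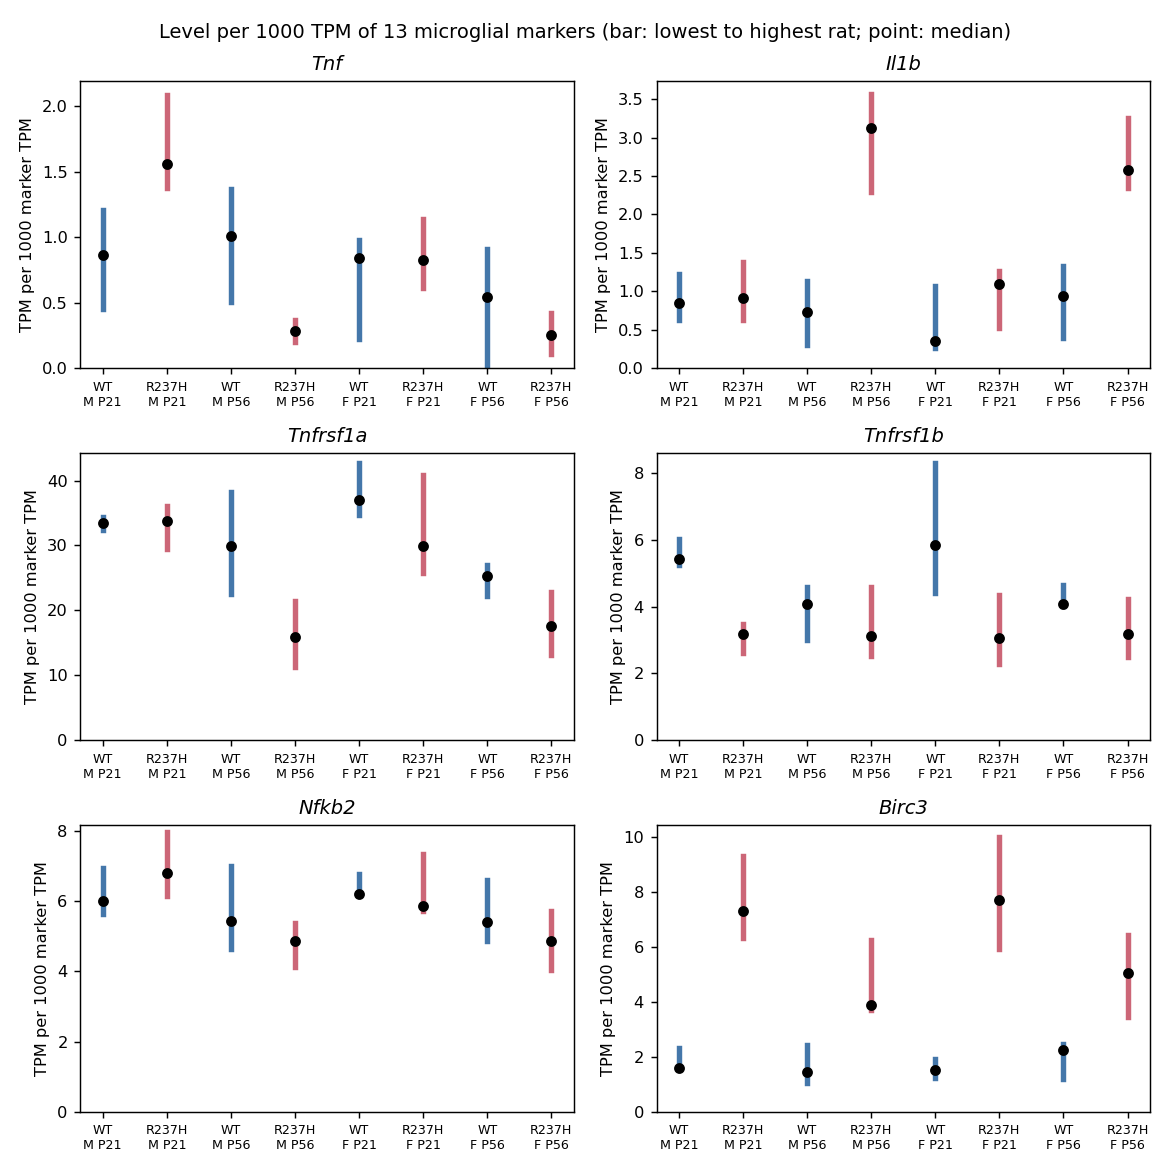
TPM of each gene per 1000 TPM summed over 13 microglia and macrophage markers, as the range over rats (bar) and the median (point) of each group. Il1b at P56 and Birc3 at both ages are higher in R237H rats on this scale, while Nfkb2 overlaps between genotypes. The marker sum is itself higher in R237H rats, and the share of all genes that separate in this way is not given here.

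Other cell types moved less evenly. The summed level of 5 astrocyte markers was 1681 to 2387 TPM over WT rats and 3151 to 6749 TPM over R237H rats. Gfap is 1 of the 5, and the others did not all share its direction. At P56 Gfap was the 1 marker of this list increased in each sex and Gja1, a gap junction gene, was decreased (by edgeR -1.16 on the log2 scale for males and -1.23 for females), and the median log2 fold change of the list was -0.57 in males and -0.40 in females. Of 6 neuronal markers 5 were decreased in males at P56 (11.1% of all genes) and 2 in females (11.1%). None was decreased at P21, where 4.82% of all genes were decreased in males and 0.752% in females. Only these 6 of 11 listed neuronal markers, and 5 of 7 astrocyte markers, had a symbol. Symbols were given for genes with the smallest FDR in the study's own comparisons, so these markers are selected for change. Choroid plexus markers were high in single rats of either genotype, up to 6164 TPM in a WT male and 1677 TPM in an R237H female at P56, and red blood cell markers were decreased at P56 in both sexes (4 of 4). The part of these cell types in the results was not tested.

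The wider pathway was read from 103 listed genes in 7 roles, of which 61 had a symbol, the 6 members among them. Symbols were given for 3289 of the 23822 genes (13.8%), those with the smallest FDR in the study's own comparisons of these rats, so the matched genes are selected for change and the counts are no independent evidence of direction. At P56 55 of the 61 were increased in male rats (16.8% of all genes tested) and 54 in female rats (17.0%). At P21 52 in males (12.4%) and 44 in females (7.06%) were. The same shares of all genes stand beside the counts of increased genes by role below. A single gene was decreased, in males at P21. The median log2 fold change of the tested list genes was 1.80 and 1.82 at P56 and 1.14 and 1.51 at P21, against medians between -0.03 and -0.01 over all genes. In all 4 comparisons 42 of the 61 were increased.

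**Figure D5:**
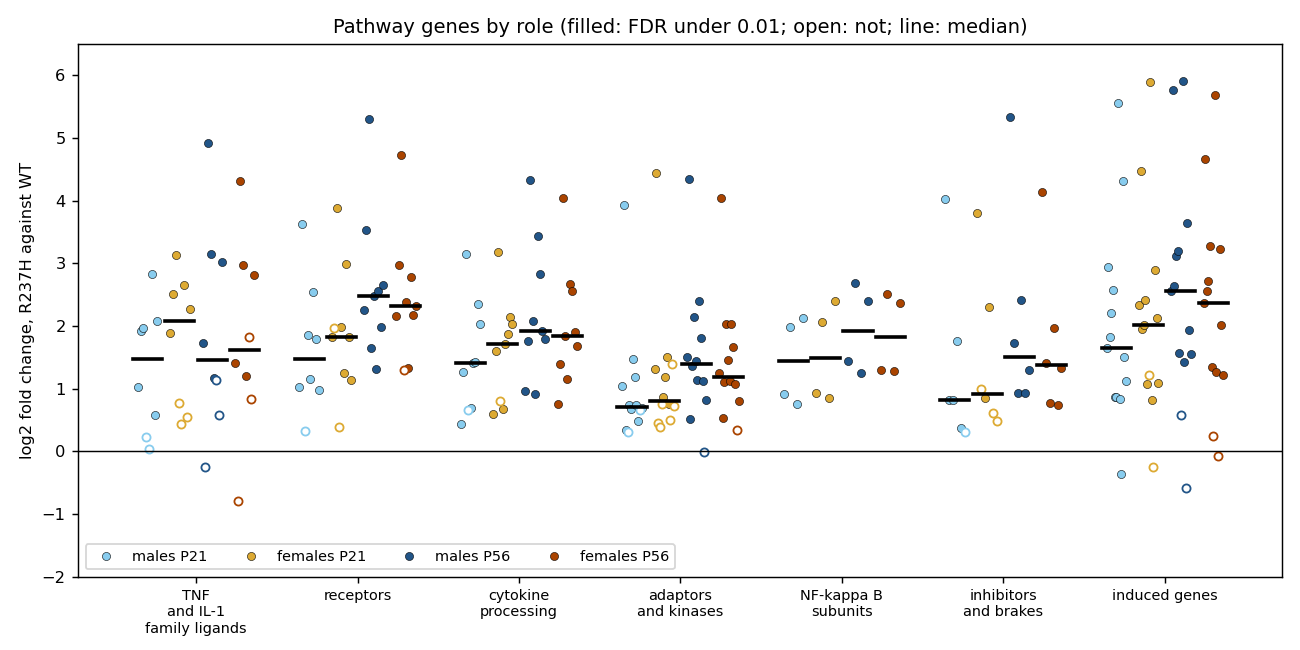
Log2 fold change of R237H against WT rats for the pathway genes with a symbol, grouped by role, in the 4 comparisons (filled, FDR under 0.01; open, above it; line, median of the role). Most points lie above 0, the 2 ligands at or below 0 at P56 are Il1a, and Bcl3, Lcn2 and Il18rap are among the highest.

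Among ligands, 5 of 8 matched genes were increased in each sex at P56, 6 in males and 5 in females at P21. Il1a, the alarmin partner of Il1b, was increased at P21, by 1.93 in males and 2.51 in females, with counts of 42 to 113 and 48 to 96 in R237H rats. At P56 its log2 fold change was -0.26 in males (FDR = 0.721) and -0.79 in females (FDR = 0.166), on counts of 3 to 42. Its effect at P56 was lower than at P21 by an estimate of -2.72 over all rats (SE 0.49, FDR = 9.10e-05). Il1rn, the antagonist of the IL-1 receptor, showed the other order. Il1rn rose by 3.15 in males and 2.97 in females at P56, and its values at P21 were 0.22 (FDR = 0.707) and 0.78 (FDR = 0.185), with an age by genotype estimate of 2.56 over all rats (SE 0.37, FDR = 4.88e-06). Il18, a caspase-1 substrate like Il1b, rose in each comparison by 1.03 to 1.88. The B cell survival ligand gene Tnfsf13b rose by 2.08 to 3.03. Il33, an alarmin, was increased at P56, by 1.17 and 1.21, with an age by genotype estimate of 0.96 over all rats (SE 0.16, FDR = 1.95e-05), and its values at P21 were 0.04 (FDR = 0.705) and 0.44 (FDR = 0.159).

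Of 9 matched receptor genes, at P56 males showed 9 increased and females 8, and at P21 both sexes showed 7 (of 8 tested in males). Il18rap, the accessory chain of the IL-18 receptor, rose by 3.63 to 5.30, the largest of this role. Il1rl1, the receptor of IL-33, rose by 1.86 to 2.47, and Tnfrsf12a, the receptor of TWEAK, by 2.55 to 2.99. Il1r1, the signalling receptor of IL-1, was increased in males at P56 by 1.64 (FDR = 0.00525), and its values were 1.30 in females at P56 (FDR = 0.0106), 0.33 in males at P21 (FDR = 0.0118) and 0.39 in females at P21 (FDR = 0.197).

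Of 9 matched genes that process cytokines or form inflammasomes, 9 were increased in each sex at P56 and 8 in each sex at P21. Casp1, which cuts the IL-1 beta precursor, rose by 1.26 to 1.76. Casp4, a sensor of intracellular lipopolysaccharide, rose by 4.03 to 4.33 at P56 and by 3.15 to 3.18 at P21. The inflammasome sensors Nlrp3 and Nlrc4 rose by 1.42 to 2.83 and by 1.42 to 3.44. Adam17, the protease that sheds TNF, rose by 0.44 to 0.96. Casp8 was increased at P56, by 2.09 and 1.85, and its values at P21 were 0.66 (FDR = 0.0147) and 0.81 (FDR = 0.0193).

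Of 12 matched adaptor and kinase genes, 11 were increased in each sex at P56, 10 in males and 6 in females at P21. Map3k14, the kinase of the non-canonical route, rose by 1.12 to 1.47. Myd88, the adaptor of the IL-1 and Toll-like receptors, rose by 1.66 to 1.80 at P56 and by 0.74 to 0.76 at P21, and Irak4 by 0.68 to 1.46. Irak3, an inhibitory member of that family, rose by 2.03 to 2.14 at P56 and by 0.75 in males at P21, with 0.76 in females at P21 (FDR = 0.0455). Ripk1, Traf2 and Ikbkb were increased in 3 of the 4 comparisons and did not pass in females at P21. Traf1 was the 1 pathway gene called in no comparison, with values from -0.01 to 1.39.

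All 4 matched NF-kappa B subunit genes were increased in every comparison, and Rel had no matched symbol. Relb rose by 2.13 to 2.40, close to Nfkb2, while Rela rose by 0.75 to 1.29 and Nfkb1 by 0.91 to 1.44. Relb was at 0.37 to 1.69 TPM over all WT rats and 2.68 to 9.07 TPM over all R237H rats. Of 6 matched inhibitors, 6 were increased in each sex at P56, 5 in males and 3 in females at P21. Bcl3, an atypical member of the inhibitor family, rose the most, by 5.34 in males and 4.14 in females at P56 and by 4.02 and 3.81 at P21, from counts of 3 to 23 in WT rats. Nfkbiz rose by 1.75 to 2.41, Nfkbie by 0.78 to 0.93, Nfkbia by 0.82 to 1.72 in the 3 comparisons it passed and Tnfaip3 by 0.38 to 0.92 in 3.

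Of 13 matched genes that NF-kappa B is known to induce, 11 were increased in each sex at P56, 12 in males and 11 in females at P21. Lcn2, a secreted iron-binding protein of reactive astrocytes, rose by 5.56 to 5.91, from 0.84 to 4.74 TPM over WT rats to 90.4 to 327 TPM over R237H rats. Tnfaip2 rose by 2.89 to 4.31 and the complement factor gene Cfb by 1.83 to 2.65. Ptgs2, which encodes the inducible cyclooxygenase, was the 1 gene decreased, by -0.36 in males at P21 (FDR = 0.00218), with -0.59 in males at P56 (FDR = 0.0179). It is named here after its value was seen.

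Among these partner genes the calls in females at P21, the comparison with 3 WT rats, were the least stable when 1 rat was left out. There the call of Il1a was lost without any 1 of 7 rats (FDR = 0.0156 to 0.0502), those of Rela (FDR = 0.0111 to 0.0356) and Myd88 (FDR = 0.0115 to 0.0527) without any 1 of 6, those of Irak4 (FDR = 0.0112 to 0.0226) and Map3k8 (FDR = 0.0112 to 0.0257) without any 1 of 4 and that of Map3k14 without any 1 of 3 (FDR = 0.0125 to 0.0163). Nfkb1 (FDR = 0.0114) and Nfkbie (FDR = 0.012) each lost it without 1 rat. Elsewhere Il1r1 in males at P56 lost its call without any 1 of 4 rats (FDR = 0.0129 to 0.0191), Ikbkb in males at P21 without any 1 of 5 (FDR = 0.0109 to 0.0166), and Tnfaip3 without any 1 of 4 in females at P56 (FDR = 0.0112 to 0.0148).

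The genes whose level followed each member most closely over the 32 rats were taken from 2941 genes with a symbol and a mean of at least 1 TPM, by Pearson's r of log2(TPM + 0.1). The rats share the genotype and age differences and the TPM scaling, so these values only describe the pattern. Tnf was closest to Gpr34 and Eva1b (0.854 each) and the chemokine gene Ccl20 (0.849), which were lower than the values of the other members. Il1b was closest to Akna (0.978), Cxcl16 (0.977) and Stk10 (0.974). Tnfrsf1a followed Cnn2 (0.994), Flnc (0.989) and S1pr3 (0.987), and Tnfrsf1b followed Grn, Cndp1 and Clec4a1 (0.986 each). Nfkb2 followed the microglial complement gene C1qb and Cyth4 (0.990 each) and Fermt3 (0.988), and Birc3 followed Csf1 (0.988), Trib3 (0.986) and Slc1a5 (0.986).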

How the data were processed

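Hippocampal RNA of 32 rats in 8 groups (genotype, sex, age) was analysed. Before deposit, the authors used Skewer for trimming, STAR for alignment and RSEM for quantification (base calling by bcl2fastq 2.20.0.422). The genome build and counting strand are not given in the sources used here. They deposited expected counts per gene, not scaled, of which 5.68% were not whole. They also deposited TPM values from RSEM. After rounding, the expected counts went into edgeR 4.0.16 (R 4.3.3) with its quasi-likelihood F-test, default low-count filter and TMM factors. R237H and WT rats were compared within sex and age, and Benjamini-Hochberg FDR under 0.01 over all genes tested was the threshold. Each SE is the absolute log2 fold change over the square root of F. The fits were first tested on simulated data. Ratios were tested by exact two-sided permutation.

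Members, gene lists and tests were chosen with earlier results of these data known. Symbols came from the study's tables. Named were the members, Gfap, 22 partner genes (all but Rel matched), in each list up to 3 further genes with the smallest FDR in males at P56, and per member the 3 genes most alike. As alternatives a likelihood-ratio test, limma 3.58.1 on log2(TPM + 0.1) and log2(TPM + 1), DESeq2 1.42.0, RLE scaling, unfiltered genes, genes with at least 10 counts in each rat, FDR under 0.05, all rats in 1 model, the title number as a block and each rat left out were run. For Tnf and Il1b counting error adds to the spread between rats. Other steps ran in Python 3.11.15 (scipy 1.17.1, pandas 2.3.3, numpy 2.4.6; plots by matplotlib 3.10.9).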

Additional observations from a re-analysis of the deposited data

Results flagged for a closer look

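In 3 of 56 checks of a measure in a group of 4 or 5 rats, a single rat lay far from the rest by Dixon's test, which chance alone gives in about 1 of 20 checks. In R237H females at P21, replicate 5 had 4.24 TPM of Nfkb2 against 6.86 to 7.54 TPM in the others. In R237H females at P56, replicate 2 had 8.26 TPM of Birc3 against 12.77 to 13.08 TPM. In WT males at P21, replicate 4 had 0.66 TPM of Birc3 against 0.40 to 0.43 TPM.

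The genotype effect differed between the ages, by a test of the difference itself, for Il1b in males (2.94 on the log2 scale) and over all rats (2.18), and for Tnfrsf1b in males (1.66), in females (1.19) and over all rats (1.44). The fits over all rats were added after seeing the data.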

How the results depend on the processing

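Over the members' fits, 396 values under other settings kept their direction and side of the threshold, 8 passed where the reported value did not and 4 no longer passed. With 1 rat left out 731 kept both, 22 no longer passed, 5 passed where the reported value did not and 10 changed sign. The cause of a changed call was not tested. Tnf in females at P56 passed by the likelihood-ratio test (FDR = 0.00561) and in the model of all 32 rats (FDR = 0.00802), while in males at P56 its FDR ran from 0.0129 to 0.223 over the alternatives. The males' count of members with an age difference was 4 at an FDR under 0.05, and it was 1 with at least 10 counts in every rat, which leaves Il1b untested, against 2. Over both sexes it was also 1 with that minimum. Nfkb2 passed for the age difference over both sexes by the likelihood-ratio test (FDR = 0.0096) and DESeq2 (FDR = 0.00669).

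Of pathway genes, 1 was decreased in males at P56 at an FDR under 0.05, by the likelihood-ratio test and by DESeq2, against 0, and 0 in males at P21 in the model of all rats, against 1. With TPM + 1 the Tnfrsf1b to Tnfrsf1a difference was -0.0253 in males (adjusted exact p = 0.829) and -0.40 in females at P56 (adjusted exact p = 0.0327), the opposite sign. WT Tnfrsf1b was at 0.62 to 1.44 TPM at P56, so the added 1 weighs most on it. On limma's TPM scale Il1a in males at P56 was 0.0075 (log2(TPM + 0.1)) and 0.0067 (log2(TPM + 1)) and Il1rn in females at P21 was -0.0182 with TPM + 1. Traf1 in males at P56 was 0.0009 by the likelihood-ratio test, 0.0105 with at least 10 counts, and 0.32 and 0.12 by limma.

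Leaving out 1 rat gave 0 to 1 decreased pathway genes both for P56 males and for P21 females, 1 to 2 members with an age difference in males, 0 to 1 in females and 2 to 4 over both sexes. The receptor ratio difference ran from 0.54 to 0.81 in males at P56, from -0.94 to -0.75 in males at P21 and from -0.82 to -0.52 in females at P21, and that of Nfkb2 to Nfkb1 in females at P21 from 1.10 to 1.22. Uncalled values that changed sign were the age difference of Birc3 over both sexes (-0.11 to 0.15), Il1a in males at P56 (-0.73 to 0.0286), Il1rn in males at P21 (-0.15 to 0.47) and Traf1 in males at P56 (-0.11 to 0.0816).

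The title number as a replicate block left 3 members and 22 pathway genes increased in females at P21, against 6 and 44. Tnf (FDR = 0.0862), Il1b (FDR = 0.111) and Tnfrsf1b (FDR = 0.0141) lost the call there, as did Tnf at P56 over both sexes (FDR = 0.0214), and Traf1 in males at P56 was 0.0011. Correlations between R237H and WT rats of the same number ran from -0.02 to 0.47, and those of unlike numbers from -0.31 to 0.31. The highest in females at P56 (0.47) and at P21 (0.39) were between rats of the same number. In males at P56 the highest (0.31) was between unlike numbers. So few pairs cannot decide whether the numbers pair rats, and the labels do not say what they mean. In males at P21 no block could be fitted because all 8 rats carry the same number. 

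The counts of decreased genes moved most. Against 1677 in males at P56, 2865 passed at an FDR under 0.05, 2609 by DESeq2, 189 by limma on TPM, 2941 in the model of all rats, 1103 with the block and 928 without R237H replicate 2. Against 1676 in females at P56 these were 3063 (FDR under 0.05), 295 and 291 (limma), 2547 (all rats), 552 (block) and 1006 (without R237H replicate 2). The block called 1518 increased genes there, against 2550. In males at P21, against 721, they were 1672, 1239 (DESeq2), 476 and 471 (limma), 180 (all rats) and 337 (without WT replicate 2). In females at P21, against 114, they were 371, 252 (likelihood-ratio), 351 (DESeq2), 73 (limma), 298 (all rats), 26 (block) and 36 to 185 with 1 rat left out, and increased genes were 1644 at an FDR under 0.05, 391 with the block and 621 without WT replicate 1, against 1070. Over both sexes at P21, against 1066, they were 1999, 1674 (DESeq2) and 1634 (without R237H female replicate 5).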
